A study of Mus musculus with 6 samples.

Results

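The miRNAs described here come from 5 hairpins, miR-532, miR-188, miR-362, miR-501 and miR-500, that lie together in an intron of Clcn5 on the X chromosome. They were chosen by name, as the entries of the liver miRNA table for these hairpins or for miR-502. This gave 10 of the 1039 mature miRNAs in the table, namely both arms of each of the 5 hairpins, while miR-502 had 0 entries. The host gene Clcn5 encodes an endosomal exchanger of chloride and protons, best known from the kidney, and its mRNA was not measured. Liver small RNA was sequenced from 3 J group mice and 3 M group mice, all wild type ICR mice aged 30 weeks. ICR is an outbred stock, so the mice of a group differ in their genes. Both groups were fed high-fat diet throughout and were dosed by gavage for 8 weeks after the initial 12 weeks of diet. The J group received JTXK granule (Jiang Tang Xiao Ke, a herbal formula with Rehmannia, Cornus, ginseng, Coptis, Salvia and Pueraria) and the M group received sterile water. The comparison asks whether the granule altered hepatic miRNA levels in mice made diabetic by diet, and mice on a standard diet were not analysed here.

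An miRNA is cut from a hairpin in a longer transcript, and either arm of the hairpin (5p or 3p) can be loaded into an Argonaute protein. Bases 2 to 8 of the loaded arm, the seed, pair with target mRNAs. Hairpins in an intron are often made from the transcript of their host gene, but each can be cut out and kept stable to a different degree. Members of the Clcn5 group have been studied mostly in tumors, neurons and bone marrow stroma, and their role in the diabetic liver is not well established.

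In the GRCm38 assembly, Clcn5 lies on the minus strand of chromosome X (chrX:7153810-7319358), and the 5 hairpins span 10815 bases inside the same intron. For 3 of the 5 annotated Clcn5 transcripts the hairpins are intronic, and none of the 5 hairpins overlaps an exon of Clcn5. In the order of transcription they are Mir532 (chrX:7248402-7248497), Mir188 (chrX:7247989-7248056), Mir362 (chrX:7241982-7242046), Mir501 (chrX:7241243-7241351) and Mir500 (chrX:7237683-7237774). Mir188 follows Mir532 after 345 bases and Mir501 follows Mir362 after 630 bases, so the hairpins form 2 close pairs and Mir500 on its own. The table of expression values carries no coordinates, so these positions were taken from the annotation.

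The mature sequences show how closely the members are related, and which arms can be told apart by their reads. The RefSeq table used here (GRCm38.p6) gave a sequence for 9 of the 10, and these have 7 different seeds. They are given 5′ to 3′, with the seed in capitals. The 3p arms are listed before the 5p arms.
mmu-miR-501-3p: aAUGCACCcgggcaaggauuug
mmu-miR-500-3p: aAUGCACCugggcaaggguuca
mmu-miR-362-3p: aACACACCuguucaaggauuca
mmu-miR-532-3p: cCUCCCACacccaaggcuugca
mmu-miR-188-3p: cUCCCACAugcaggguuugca
mmu-miR-362-5p: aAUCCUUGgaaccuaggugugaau
mmu-miR-500-5p: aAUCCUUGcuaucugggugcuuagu
mmu-miR-501-5p: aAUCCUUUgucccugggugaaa
mmu-miR-188-5p: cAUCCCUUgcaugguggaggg
The pair mmu-miR-501-3p and mmu-miR-500-3p has the same seed, and so does the pair mmu-miR-362-5p and mmu-miR-500-5p. From mmu-miR-500-3p to mmu-miR-501-3p there are 4 substitutions, U9C, G18A, C21U and A22G, counted from 1 at the 5′ end, and 18 bases are equal. The study's text names no mismatch rule for assigning reads, so the low counts of mmu-miR-500-3p beside its abundant relative are uncertain to that extent. mmu-miR-532-5p is named only.

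RPM, the unit of all levels below, is the authors' scaling of each miRNA's reads to the total of miRNA reads in its library, so that the values of each library sum to 1000000. The libraries held 2626353 to 4314134 miRNA reads, so a limit of 3 reads corresponded to 0.695 to 1.14 RPM. Hepatocyte miRNAs were present as the liver label says: all 4 markers had reads in every library, at a summed 391439 to 450361 RPM. M group replicate 1 stood apart from the others. Over the 548 miRNAs whose group mean exceeded 1 RPM in either group, its log2(RPM + 1) correlated with the other 5 libraries at 0.931 to 0.941, while those 5 correlated with each other at 0.973 to 0.989 (Pearson, across miRNAs, which are not independent). Its summed leukocyte markers (5 of 5 with reads in every library) were at 4228 RPM against 595 to 1080 RPM in the other 5 libraries, and its bile duct markers (5 of 5) were at 4298 RPM against 950.1 to 2379 RPM. The title of M group replicate 1 carries the code MX1_3, the other M titles MX2_2 and MX2_3, and the J titles GJ2_2, GJ2_4 and GJ2_5. The study's text does not explain these codes. The log2 fold changes of the members are also given without M group replicate 1.

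The 5 hairpins differed widely in level although they share an intron. Summed over both arms, miR-501 was the highest in 6 of 6 libraries (263.6 to 354 RPM), followed by miR-532 (152 to 258 RPM) and miR-362 (61.4 to 124 RPM), and this order held in 6 of 6 libraries. miR-188 (4.40 to 14.1 RPM) and miR-500 (5.86 to 11.4 RPM) were far lower, and their order varied: miR-500 was above miR-188 in 4 libraries, below it in 1 and level with it in M group replicate 2. The ratio of miR-501 to miR-188 ranged from 22.0 to 59.8 over the libraries, with a median of 44.4. Mir532 and Mir188, the closest neighbours in the intron, thus ranked second and among the lowest in level. These values describe reads in libraries, since adapter ligation and PCR capture some sequences better than others.

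**Figure D1:**
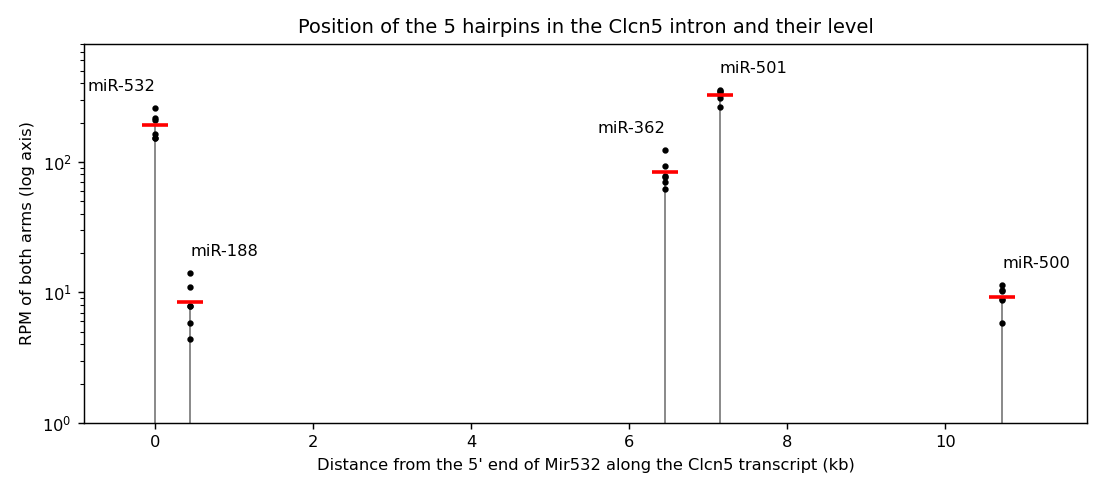
Level of each hairpin (RPM of both arms, log axis) against its distance in kb from the 5′ end of Mir532 along the direction of transcription. Points are the 6 libraries and the red bar is their mean. The neighbours miR-532 and miR-188 lie 345 bases apart and do not overlap in level, and miR-501 is highest in 6 of 6 libraries.

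In all, the cluster held 1689 to 2922 reads per library. In the J mice, replicates 1 to 3, its summed level was 558, 562 and 602 RPM, with a mean of 574 ± 24.4 RPM (SD, 3 mice). In the M mice, replicates 1 to 3, it was 715, 583 and 680 RPM, with a mean of 659 ± 68.4 RPM (SD, 3 mice). The groups overlapped, since M group replicate 2 lay below J group replicate 3. Without M group replicate 1, the M group mean was 632 ± 68.9 RPM (SD of the other 2). The difference, J minus M, was -85.3 RPM and became -37.9 RPM with median-of-ratios scaling. The miR-501 hairpin supplied 43.4% to 58.4% of the cluster's RPM, miR-532 supplied 26.3% to 37.6% and miR-362 supplied 10.9% to 17.4%. The dominant arms, mmu-miR-501-3p and mmu-miR-532-5p, together made up 77.9% of the cluster in M group replicate 1 and 81.2% to 82.3% in the other libraries. In whole liver, for any level given here, the number of cells that make an miRNA and its amount per cell cannot be told apart.

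The order of the mature miRNAs by mean RPM over the 6 libraries was mmu-miR-501-3p (322 RPM, the 87th highest entry of the table), mmu-miR-532-5p (177 RPM), mmu-miR-362-3p (49.3 RPM), mmu-miR-362-5p (34.3 RPM), mmu-miR-532-3p (15.04 RPM), mmu-miR-500-3p (9.20 RPM), mmu-miR-188-3p (7.08 RPM), mmu-miR-188-5p (1.42 RPM), mmu-miR-501-5p (0.797 RPM) and mmu-miR-500-5p (0.0773 RPM). Only the top 2 and mmu-miR-362-5p had ranges that lay wholly above those of the next miRNA in the order. All other neighbours overlapped between libraries. The levels of these miRNAs by library are plotted on a log axis.

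**Figure D2:**
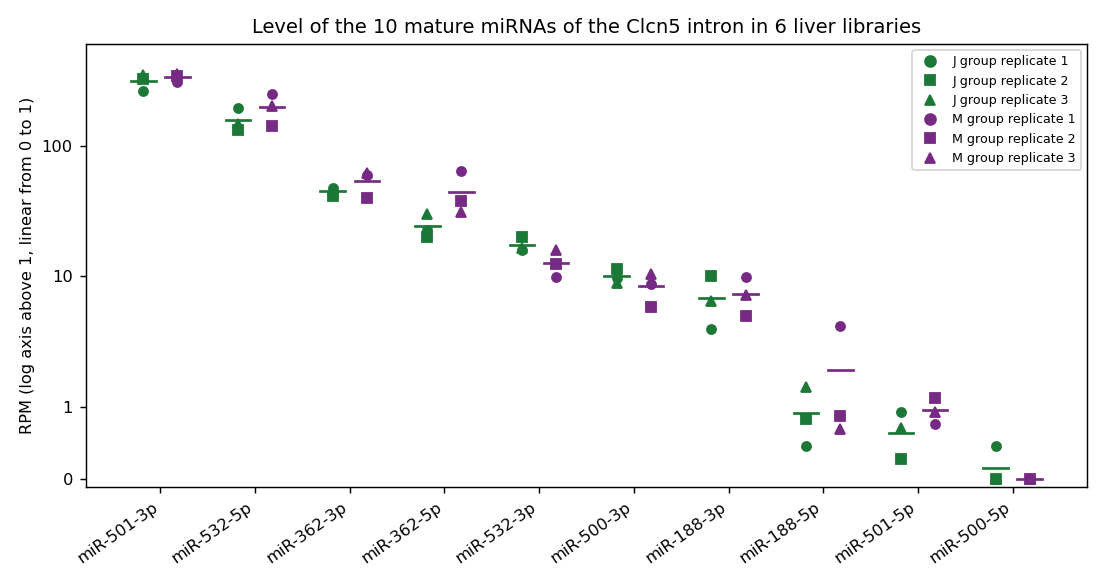
RPM of the 10 mature miRNAs in each library, ordered by mean level, with the J group in green and the M group in purple, and bars at the group means. The axis is logarithmic above 1 RPM and linear from 0 to 1 RPM. mmu-miR-362-5p is lower in each J library than in each M library, mmu-miR-188-5p is raised in M group replicate 1 alone, and the rarest miRNAs lie near the limit of 3 reads.

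Every hairpin except miR-362 had a clearly dominant arm, and the dominant arm differed between hairpins. In miR-501 the 3p arm made up 99.6% to 99.9% of the reads of the hairpin over the 6 libraries. In miR-500 it made up 95.5% to 100% and in miR-188 70.3% to 92.3% (81.8% to 92.3% without M group replicate 1). In miR-532 the 5p arm dominated, with 87.0% to 96.2%. miR-362 gave both arms, with 32.5% to 51.8% of its reads from the 5p arm. The 3p arm was the more abundant in 5 of 6 libraries, the exception being M group replicate 1.

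For miR-362, the J mice (replicates 1 to 3) had a 5p share of 32.5%, 32.7% and 39.4%, and the M mice (replicates 1 to 3) of 51.8%, 48.7% and 33.5%. The M group libraries thus reached higher, but replicate 3 of the M group fell inside the J range. The means were 34.9% ± 3.96 for J and 44.7% ± 9.80 for M (SD over 3 mice each), and 41.1% for M without replicate 1. The difference of -9.80 percentage points (J minus M) became -6.22 without M group replicate 1 and -15.4 without M group replicate 3. The 95% Wilson interval reached from 46.4% to 57.2% in M group replicate 1 and from 29.0% to 38.3% in M group replicate 3, so libraries of the same group differed by more than counting error. Intervals and limits cover counting error only, because PCR duplicates were not removed by molecular tags.

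For miR-532, the 5p share was 92.4%, 87.0% and 90.0% in the J group replicates and 96.2%, 92.0% and 92.7% in the M group replicates. J group replicate 2 was lowest and M group replicate 1 highest, and the groups overlapped because J group replicate 1 lay above M group replicate 2. The means were 89.8% ± 2.71 and 93.6% ± 2.25 (SD over 3 mice each), with 92.3% in the M group without replicate 1. The shares of the other hairpins rest on few reads of the minor arm: 1 to 4 reads per library for mmu-miR-501-5p, 2 to 11 for mmu-miR-188-5p and 0 to 2 for mmu-miR-500-5p.

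**Figure D3:**
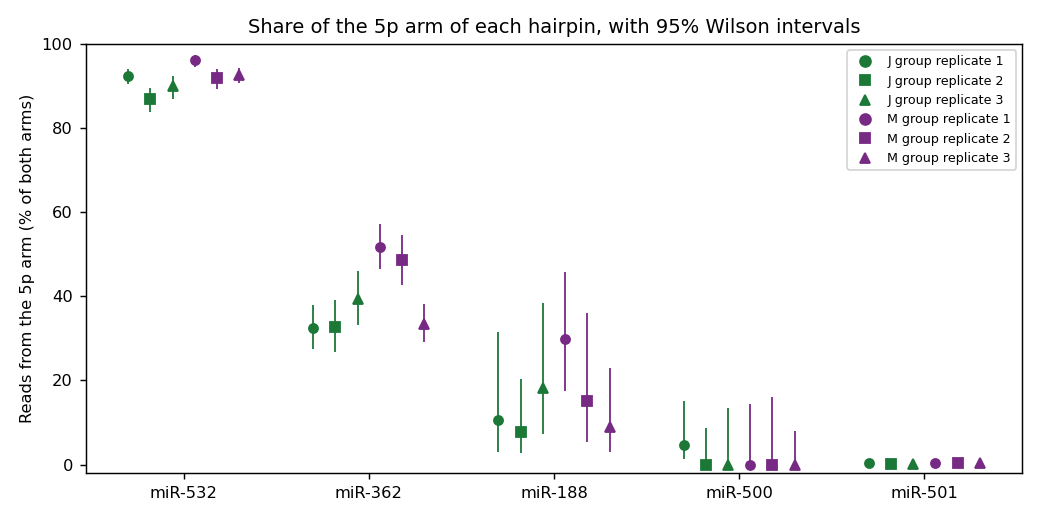
Reads from the 5p arm as a percentage of the reads of both arms of each hairpin, for each library (J group in green, M group in purple), with 95% Wilson intervals. miR-532 sits above 86%, miR-501 below 1%, and miR-362 between 32.5% and 51.8%, with M group replicate 3 among the J libraries.

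To ask which members differed with the granule, the 2 groups were tested with limma on log2(RPM + 1), a linear model that shares the spread between libraries across miRNAs, over the same 548 miRNAs. Of the 10 members, 8 entered. mmu-miR-188-5p did so through M group replicate 1 alone, and mmu-miR-501-5p and mmu-miR-500-5p were too rare. The thresholds of the study's methods ask for a log2 fold change beyond 0.3 in either direction and for an unadjusted p under 0.05. None of the 8 members tested passed them (0 with an unadjusted p under 0.05 by limma, edgeR or DESeq2 alike), against 29 of all 548 miRNAs (5.29%). Of those 29, 8 were higher (1.46% of all tested) and 21 lower (3.83%) in J mice. With median-of-ratios scaling the split was 17 higher against 13 lower, with quantile normalization 20 against 11, and with edgeR 18 against 27. Across all 548 miRNAs, 0 had an adjusted p under 0.05 in limma and 0 in edgeR (29 and 45 at an unadjusted p under 0.05), and 2 in DESeq2, neither of them a member. mmu-miR-188-5p is left out of the next 2 summaries, because the library that let it enter was the one where it was high. The median log2 fold change was -0.13 over the other 7 members and -0.13 over all 548 miRNAs. With median-of-ratios scaling these medians were -0.045 and -0.037, and with quantile normalization 0.056 and 0.075. A log2 fold change below 0 was seen for 5 of the 7 members (3 with quantile normalization, 3 without J group replicate 1 and 4 without M group replicate 1) and for 58.9% of all miRNAs. The groups were fully separate in level for 2 of the 8 members, and for 13.5% of all miRNAs tested.

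mmu-miR-362-5p, which has been linked to growth of hepatocellular carcinoma cells, came closest to the thresholds, with an unadjusted p just above 0.05. The J mice (replicates 1 to 3) had 22.7, 20.1 and 29.9 RPM, and the M mice (replicates 1 to 3) had 64.3, 37.8 and 31.0 RPM. All 3 J libraries lay below all 3 M libraries, which was so for 9.31% of all miRNAs tested. The gap between J group replicate 3 (84 reads, 95% Wilson interval 24.2 to 37.1 RPM) and M group replicate 3 (133 reads, 26.1 to 36.7 RPM) could not be detected with these reads. Its log2 fold change was -0.80 (standard error, SE, 0.34, with a 95% interval of -1.60 to 0.0046 and adjusted p = 0.71 by limma), and 4 of 15 alternative settings put it past the thresholds. Without M group replicate 1 it was -0.50 (SE 0.30, adjusted p = 0.85). The alternatives gave adjusted p from 0.54 to 0.85.

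The other arm of this hairpin, mmu-miR-362-3p, had 47.3, 41.3 and 46.0 RPM in the J mice and 59.8, 39.9 and 61.5 RPM in the M group. M group replicates 1 and 3 were the highest and M group replicate 2 was the lowest, so the groups overlapped. Its log2 fold change was -0.23 (SE 0.26, 95% interval -0.85 to 0.39, adjusted p = 0.79), and it was 0.056 under quantile normalization, -0.13 with median-of-ratios scaling or DESeq2 and -0.14 with edgeR. It was -0.14 without M group replicate 1, -0.43 without M group replicate 2 and -0.12 without M group replicate 3. Seeds could be compared for 429 of the 548 tested miRNAs, those with a sequence in the RefSeq table used, which leaves out mmu-miR-532-5p. Among them 1 miRNA outside the cluster had the seed of a member, mmu-miR-329-3p of the imprinted Dlk1-Dio3 region, which has that of mmu-miR-362-3p. mmu-miR-329-3p was read 1, 8 and 15 times in the J mice and 2, 17 and 11 times in the M mice. Its log2 fold change was -0.19 (SE 0.70, adjusted p = 0.94 by limma). With a library left out, it ranged from -0.75 (without J group replicate 3) to 0.44 (without J group replicate 1). mmu-miR-329-3p lay far below mmu-miR-362-3p in every library, at 0.232 to 5.35 RPM.

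mmu-miR-532-5p, which is known as a regulator of the transcription factor Runx3, had 194, 132 and 147 RPM in the J mice and 248, 141 and 200 RPM in the M group. M group replicate 1 was the highest library and J group replicate 2 the lowest, and the groups overlapped. The means of 158 ± 32.3 and 196 ± 53.7 RPM (SD over 3 mice each) gave a log2 fold change of -0.29 (SE 0.28, 95% interval -0.96 to 0.37, adjusted p = 0.76). Without M group replicate 1 it was -0.11 (SE 0.27) and without J group replicate 2 it was -0.18, while it was -0.51 without M group replicate 2 and -0.45 without J group replicate 1. It was -0.19 with median-of-ratios scaling, -0.11 with quantile normalization and -0.17 with both edgeR and DESeq2. None of 15 alternatives put it past the thresholds.

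mmu-miR-532-3p, the minor arm of the same hairpin, went the other way in value. It had 16.0, 19.8 and 16.4 RPM in the J mice and 9.90, 12.3 and 15.8 RPM in the M group. All 3 J libraries lay above all 3 M libraries, as for 4.20% of all miRNAs tested, but J group replicate 1 (69 reads) and M group replicate 3 (68 reads) were within counting error of each other. The log2 fold change was 0.44 (SE 0.28, 95% interval -0.22 to 1.11, adjusted p = 0.71), and 0.29 without M group replicate 1. It did not pass the thresholds under any of 15 alternatives, with adjusted p from 0.56 to 0.91.

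mmu-miR-501-3p, known from work on glutamate receptors in neurons, was the most even member. It had 263, 325 and 345 RPM in the J mice and 309, 339 and 353 RPM in the M group. J group replicate 1 was the lowest library, and the other 2 J libraries lay among the M libraries. The means were 311 ± 43.2 and 334 ± 22.3 RPM (SD over 3 mice each) and the log2 fold change was -0.11 (SE 0.20, 95% interval -0.58 to 0.36, adjusted p = 0.87), which was 0.14 under quantile normalization, -0.0015 with median-of-ratios scaling, -0.0077 with edgeR, -0.00078 with DESeq2, 0.0091 without J group replicate 1 and -0.16 without M group replicate 1. With 812 to 1515 reads per library, it was the most deeply sampled member.

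mmu-miR-500-3p, from a hairpin described in fetal liver and liver cancer, had 42, 41 and 25 reads in the J group and 23, 20 and 45 reads in the M group. This gave 9.74, 11.4 and 8.91 RPM in the J mice and 8.76, 5.86 and 10.5 RPM in the M group, which overlap. The means were 10.03 ± 1.29 and 8.37 ± 2.33 RPM (SD over 3 mice each). Its log2 fold change was 0.26 (SE 0.31, 95% interval -0.46 to 0.98, adjusted p = 0.79), and 0.31 without M group replicate 1. It was 0.053 without M group replicate 2, 0.17 without J group replicate 2 and 0.42 without M group replicate 3. Its relative with the same seed, mmu-miR-501-3p, was 27.0 to 57.9 times as abundant (median 34.5), so nearly all reads of this pair were assigned to mmu-miR-501-3p. The 2 miRNAs differed in level in these libraries, and neither passed the thresholds. On log2(RPM + 1) they correlated at -0.17 (Spearman 0.086) over the 6 libraries. Whether their differences between J and M mice were unlike was not tested.

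mmu-miR-188-3p, known as a regulator of the autophagy gene Atg7 in heart muscle, had 3.94, 10.05 and 6.42 RPM in the J mice and 9.90, 4.98 and 7.22 RPM in the M group. The libraries of both groups were fully mixed, and the log2 fold change of -0.13 (SE 0.40, 95% interval -1.08 to 0.81, adjusted p = 0.91) was 0.077 without M group replicate 1, 0.16 without J group replicate 1, -0.42 without J group replicate 2 and -0.36 without M group replicate 2. mmu-miR-188-5p, which in bone marrow stroma is known to shift cells from bone to fat formation, was read 2, 3 and 4 times in the J mice and 11, 3 and 3 times in the M mice. Only M group replicate 1 stood out, with 4.19 RPM (95% Wilson interval 2.34 to 7.50 RPM) against 0.464 to 1.43 RPM elsewhere. Its log2 fold change was -0.45 (SE 0.51, adjusted p = 0.79), and it ranged from -0.74 (without M group replicate 3) to -0.27 (without J group replicate 1) with the other libraries left out. It was -0.92 with edgeR, -0.96 with DESeq2 and -0.12 with 10 RPM added. Without that library its mean was 0.909 RPM for J and 0.789 RPM for M, and it no longer entered the test.

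The rarest members were the minor arms of the relatives miR-501 and miR-500. mmu-miR-501-5p was read 4, 1 and 2 times in the J mice and 2, 4 and 4 times in the M mice, and the groups could not be told apart at this depth. mmu-miR-500-5p had 2 reads in J group replicate 1 and 0 reads elsewhere, all within the limit of 3 reads, so no fold is given.

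**Figure D4:**
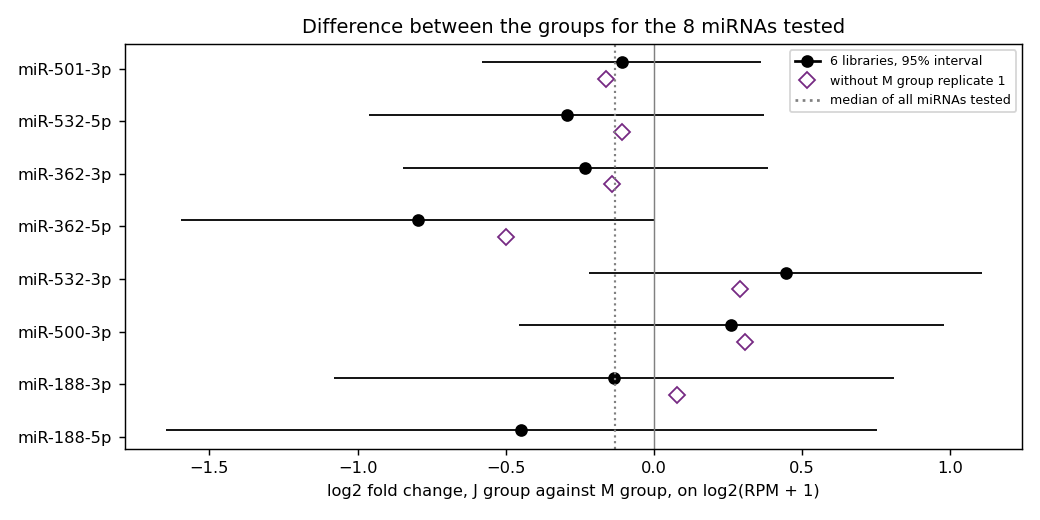
log2 fold change of the J group against the M group on log2(RPM + 1) for the 8 members tested, with 95% intervals from limma (black), and without M group replicate 1 (open diamonds, none for mmu-miR-188-5p, which then no longer entered the test). The dotted line is the median of all 548 miRNAs tested, -0.13. Each of the 8 intervals includes 0, and the estimate for mmu-miR-362-5p moves from -0.80 to -0.50 when M group replicate 1 is left out.

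M group replicate 1 was the highest library for 3 of the 10 members, mmu-miR-532-5p, mmu-miR-362-5p and mmu-miR-188-5p, and the lowest for mmu-miR-532-3p. Across groups, the summed stromal and smooth muscle markers (4 of 5 in the table, all 4 with reads in every library) were at 12582 to 16890 RPM in J mice and 16765 to 25242 RPM in M mice, with the highest value in the same library and 20214 RPM as the highest without it. The red blood cell markers (2 of 3 in the table) were at 4286 to 6232 RPM in J mice and 2534 to 9724 RPM in M mice, and the endothelial marker found (1 of 2) at 4166 to 6718 and 4486 to 5579 RPM. The part of these cell types in the values of mmu-miR-362-5p and mmu-miR-532-5p was not tested.

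The correlations of mmu-miR-532-5p with the other 7 tested members differed in sign over the 6 libraries. On log2(RPM + 1), it correlated with mmu-miR-362-3p at 0.88 (Spearman 0.89), with mmu-miR-362-5p at 0.61 (Spearman 0.60), with mmu-miR-188-5p at 0.51 (Spearman 0.14) and with mmu-miR-188-3p at 0.11 (Spearman -0.029). The value was -0.60 (Spearman -0.66) with its own other arm mmu-miR-532-3p, -0.37 (Spearman -0.086) with mmu-miR-501-3p and 0.16 (Spearman -0.20) with mmu-miR-500-3p. These are descriptions over 6 libraries that share their library totals between the miRNAs. Without J group replicate 2 and M group replicate 1, the libraries farthest from the median of mmu-miR-532-5p, the Pearson value was 0.80 with mmu-miR-362-3p, -0.65 with mmu-miR-362-5p, -0.75 with mmu-miR-188-5p, -0.014 with mmu-miR-188-3p, 0.56 with mmu-miR-532-3p, -0.42 with mmu-miR-501-3p and 0.81 with mmu-miR-500-3p. The Pearson values for mmu-miR-362-3p and mmu-miR-501-3p thus kept their sign. That for mmu-miR-500-3p went from 0.16 to 0.81, but its Spearman value over all 6 libraries was -0.20, so its sign depended on the measure. The Pearson values for mmu-miR-362-5p, mmu-miR-188-5p, mmu-miR-188-3p and mmu-miR-532-3p changed sign.

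Of 487 other mouse miRNAs tested, those most like mmu-miR-532-5p were mmu-miR-199b-5p (Pearson 0.98, Spearman 1.0, 28.2 to 156 RPM), mmu-miR-214-5p (0.96 and 1.0, 1.40 to 3.81 RPM) and mmu-miR-132-5p (0.95 and 0.83, 0.586 to 1.90 RPM). Without J group replicate 2 and M group replicate 1 their Pearson correlations were 0.99, 0.97 and 0.995. mmu-miR-500-3p was most like mmu-miR-29a-5p (0.97 and 0.94), mmu-miR-455-5p (0.91 and 0.83) and mmu-miR-6935-3p (0.90 and 0.77). They were at 1.17 to 3.63, 83.8 to 262 and 0.293 to 8.37 RPM, the last reaching below the limit of 3 reads. J group replicate 2 and M group replicate 2 lay farthest from the median of mmu-miR-500-3p. Without them, the Pearson correlations were 0.87, 0.53 and -0.32, so the last rested on these 2 libraries. The highest of 487 correlations over 6 libraries is high by selection.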

How the data were processed

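Small RNA of the liver was sequenced from 3 J group and 3 M group mice, 1 library per mouse, and groups were taken from the sample titles. The authors removed low-quality reads, searched the unique sequences against Rfam and miRBase to name known and predicted miRNAs, and deposited RPM, in which the reads of each entry are scaled to the sum of miRNA reads in that library. The submitters' processing notes name mm9; the aligner and the rule for reads that match several miRNAs are not given in the sources used here. Of all values, 100% were whole multiples of the RPM of 1 read (tolerance 0.01 reads), so reads were recovered, and 2626353 to 4314134 per library sets the precision.

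Differences between J and M mice were tested in R 4.3.3 with limma 3.58.1 (variance trend, two-sided) on log2(RPM + 1), with adjusted p (Benjamini-Hochberg) over all 548 miRNAs. The added 1 RPM pulls fold changes of rare miRNAs toward 0. An exact permutation of 3 against 3 cannot give a p below 0.1. Alternatives were 0.1 or 10 RPM added, no filter, a mean above 10 RPM, median-of-ratios scaling, quantile normalization, the recovered reads in edgeR 4.0.16 or in DESeq2 1.42.0, a replicate block, and each library left out. Sums and arm shares were described, with 95% Wilson intervals for shares. Named were all members, tested miRNAs sharing a member's seed, and the 3 miRNAs most correlated with mmu-miR-532-5p and with mmu-miR-500-3p. mmu-miR-660, another miRNA assigned to Clcn5, had 0 entries. The members and lists were chosen with earlier results of these data known. The fits were tested on simulated data. Positions come from GENCODE M21 (GRCm38) and sequences from RefSeq. Other software was Python 3.11.15, numpy 2.4.6, pandas 2.3.3, scipy 1.17.1 and matplotlib 3.10.9.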

Additional observations from a re-analysis of the deposited data

How the results depend on the processing

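The count of 29 miRNAs past the thresholds was 45 with edgeR on the recovered reads and ranged from 21 (without J group replicate 2) to 46 (without M group replicate 2) with a library left out. The count of cluster members past the thresholds, 0 of 8, was 1 without the filter and 1 when a mean above 10 RPM was required, and ranged from 0 to 1 with a library left out. In each case the member was mmu-miR-362-5p, which passed without J group replicate 3 (-0.95) and without M group replicate 3 (-1.01), and which stayed below 0 under all 15 alternatives. Directions changed for mmu-miR-188-3p, which ranged from -0.42 (without J group replicate 2) to 0.16 (without J group replicate 1) and was 0.077 without M group replicate 1. For mmu-miR-501-3p it changed to 0.14 with quantile normalization and 0.0091 without J group replicate 1 (-0.19 without J group replicate 3), and for mmu-miR-362-3p to 0.056 with quantile normalization. mmu-miR-329-3p ranged from -0.75 (without J group replicate 3) to 0.44 (without J group replicate 1) and was 0.23 without M group replicate 2. The cause was not tested. mmu-miR-532-5p, mmu-miR-532-3p and mmu-miR-500-3p kept their directions under the alternatives, while their sizes moved, for mmu-miR-500-3p from 0.053 to 0.42 with a library left out. With 10 RPM added, mmu-miR-500-3p was 0.13, mmu-miR-532-3p 0.28 and mmu-miR-188-3p -0.054, and the last was -0.045 with median-of-ratios scaling, -0.062 with quantile normalization, -0.026 with edgeR and -0.0078 with DESeq2. The difference in summed RPM of the cluster, J group minus M group, was -85.3 RPM, -37.9 RPM after median-of-ratios scaling, and -123 to -57.6 RPM with a library left out.

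The replicate numbers are shared between the groups. Deviations from the group means correlated at 0.045, 0.058 and -0.0059 for same-numbered libraries. The other pairs of a J and an M library correlated at -0.24 to 0.16. With 3 libraries per group, these values cannot tell whether the numbers mark pairs. With the replicate block, 27 miRNAs and 0 cluster members passed. Leaving out a library leaves 5, and the smaller group is then assumed to vary like the larger. Members under 10 reads per library, and gaps such as that between 69 and 68 reads, are limited by depth.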

Other observations

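Another X-linked cluster of the table, with miR-322, miR-503, miR-450, miR-351 and miR-542 (12 mature miRNAs), was more abundant than the Clcn5 cluster in each of the 6 libraries. Its summed level was 1036, 1190 and 1231 RPM in J group replicates 1 to 3 and 853, 1210 and 1097 RPM in M group replicates 1 to 3. M group replicate 1 had the lowest sum of this cluster and the highest of the Clcn5 cluster. The means were 1152 ± 103 RPM for J and 1053 ± 183 RPM for M (SD over 3 mice each), and 1153 RPM for M without replicate 1.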
